A study of Rattus norvegicus with 132 samples.

Results

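A set of 40 genes of DNA damage signalling and repair was followed in the epithelium of the rat colon and jejunum after abdominal irradiation. It was given by symbol, from the kinases that sense damage to the proteins that mend breaks, crosslinks, mismatches and damaged bases. All 40 symbols were found among the 21837 genes of the count tables, and all 40 passed the filter on low counts in every fit. Total RNA of Sprague Dawley rats was sequenced in 132 libraries, 22 groups of 6, and the questions asked here are what irradiation, time after irradiation and a Kushen preparation changed in the levels of these genes.

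The non-irradiated rats had no irradiation and no treatment, and the labels give them no day. All other rats had fractionated abdominal irradiation of 5 fractions of 4 Gy between day 0 and day 4, with epithelium collected on day 4 or on day 7. The irradiated arms were untreated (irradiation alone), oral vehicle (water), compound Kushen powder by mouth (called a pill in some of the labels), injected vehicle (0.25% Tween-80 with 25 mM HEPES, given into the peritoneum) and compound Kushen injection by the same route. The preparations were tested in irradiated rats, and the labels state neither age nor sex. The samples are bulk epithelium, so fewer cells of a type and less RNA per cell cannot be told apart in any level given here.

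Cells answer DNA breaks through the kinases Atm, Prkdc and Atr, which mark chromatin around the lesion and, through Chek1 and Chek2, hold the cell cycle. Broken ends are then joined directly (end joining) or copied from the sister chromatid (homologous recombination), which needs a replicated chromosome and so works in dividing cells; the Fanconi anaemia proteins open crosslinks and hand them to recombination. The crypts of the intestine hold its dividing cells, are sensitive to radiation, and regrow from survivors in the days after it.

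Promoters from RefSeq (build GRCr8, 250 bases before to 50 bases after the start of the gene) were matched by symbol for 32 of the 40 genes, not for Chek2, Prkdc, Mdc1, Nbn, Blm, Xrcc2, Ddb2 and Rrm2b. They were searched on both strands for the site of E2F, the factor family of S phase genes, spelled TTTCCCGC, TTTCGCGC, TTTGCCGC or TTTGGCGC. A match stood in 6 of the 32 promoters (18.8%), against 2.14% of all 33465 RefSeq promoters of the same length. The 6 genes were Atm, Chek1, Bard1, Fancd2, Msh6 and Polk. The stretch around the site is shown for the 5 of them with the match before or just past the start. Chek1, Bard1, Fancd2 and Msh6 rose at both days in both tissues. So did Exo1, Fanci, Palb2, Rad54l, Xrcc1 and Xrcc5, whose promoters were searched and held no match. A part of the site in the rise was not tested. Each stretch is printed 5′ to 3′ on the strand of the gene, with the E2F match, or its reverse complement, in capitals.
Atm, chr8:62828835-62828879, minus strand: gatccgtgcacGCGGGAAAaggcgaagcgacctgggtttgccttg
Chek1, chr8:44629844-44629897, minus strand: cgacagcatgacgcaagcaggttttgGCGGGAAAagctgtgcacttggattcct
Bard1, chr9:80143927-80143986, minus strand: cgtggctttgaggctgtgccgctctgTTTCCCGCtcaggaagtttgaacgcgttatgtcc
Fancd2, chr4:148234691-148234724, plus strand: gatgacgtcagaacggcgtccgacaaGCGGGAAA
Msh6, chr6:12333503-12333536, minus strand: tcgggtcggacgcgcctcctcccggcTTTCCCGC
The CCAAT box (CCAAT) was in 13 of 32 (40.6%, against 37.5% of all), and the CHR element of late cell cycle genes (TTTGAA) in 5 of 32 (15.6%, against 18.3%). A single unit of the p53 motif, not a full paired site, was in 1 of 32, Rad50 (3.12%, against 7.98%). Ddb2 and Rrm2b had no promoter in this search. Overlaps between matches of different motifs were not counted. A match is a description of these letters and not a measured site.

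The libraries held 17.2 to 19.8 M counts. The tissue labels fit the markers: summed jejunum markers were 82715 to 96323 CPM (counts scaled to the library total with TMM factors) in non-irradiated jejunum against 63.4 to 602 in non-irradiated colon. Each oral, untreated and non-irradiated group has 3 libraries of name series 1 and 3 of series 2, while the injected groups belong to series 3, and no comparison was made between an injected arm and the others. Among the untreated jejunum libraries, day 4 replicate 1 stood apart: it was the highest of its group in 26 of the 40 genes and its summed level of 21 proliferation genes was 681 CPM, against 59.6 to 256 CPM in the other libraries of the group. Day 7 replicate 6 of the jejunum was the highest of its group in 29 of the 40. Other libraries lay low: day 4 replicate 2 of the untreated jejunum, with the 59.6 CPM, was the lowest of its group in 24 of the 40. In colon at day 7, untreated replicate 3 was the lowest in 32 and powder replicate 6 in 33.

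Most of these genes were higher after irradiation at day 7, and fewer of them at day 4. A gene counts as called at an edgeR p below 0.05 after Benjamini-Hochberg adjustment across the genes tested. In colon at day 4, 16 of 40 were called higher and 6 lower, against 24.6% of all genes higher and 22.3% lower. In colon at day 7, 30 were higher and 3 lower, against 32.9% and 30.8% of all genes. In jejunum at day 4, 17 were higher and 1 lower, against 25% and 18.9% of all genes. In jejunum at day 7, 30 were higher and 0 lower, against 31.4% and 27.4% of all genes. No gene of the 40 was lower there at an unadjusted p under 0.05 either, and DESeq2 also called 0 lower. The median log2 fold change of the 40 genes was 0.22, 0.59, 0.50 and 1.2 in these comparisons in order, against 0.02, 0.02, 0.05 and 0.02 over all genes tested. The genes higher in both tissues numbered 11 at day 4, which is 68.8% of the colon list and 64.7% of the jejunum list, and 27 at day 7, which is 90% of each list. The comparisons at day 4 and day 7 of a tissue share their non-irradiated libraries.

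**Figure D1:**
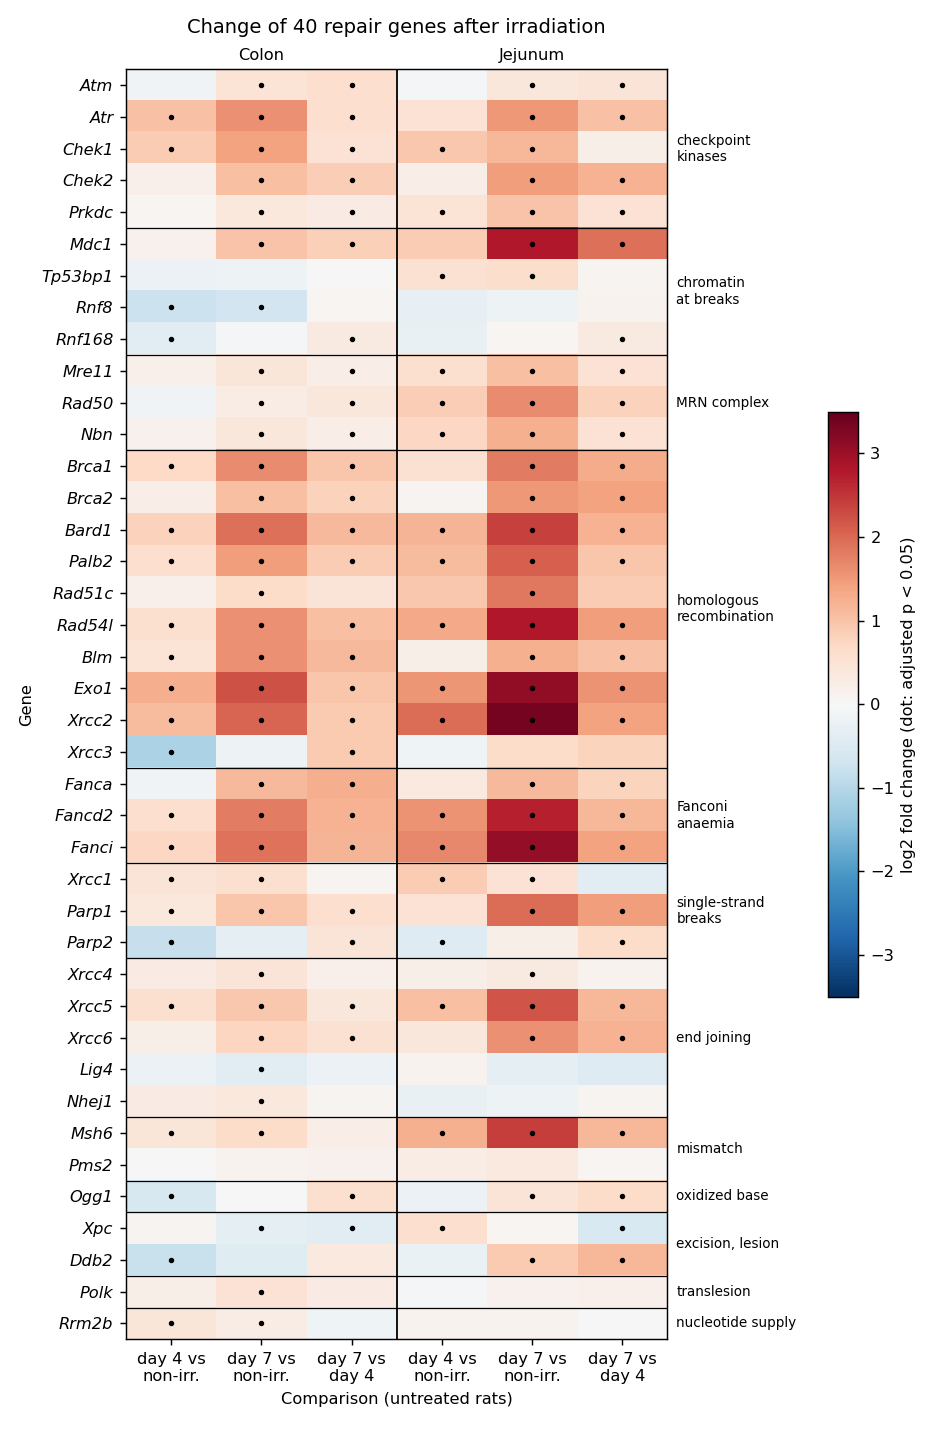
Each cell is the log2 fold change of a gene (rows, grouped by role) in a comparison of untreated libraries (columns, n = 6 against 6), and a black dot marks an adjusted p under 0.05. The darkest red cells are those of Xrcc2 (3.36), Exo1 (3.12) and Fanci (3.09) in jejunum at day 7, and Xrcc3 in colon at day 4 is the lowest at -1.09.

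Of the 5 sensing and checkpoint kinases, 2 rose in each tissue at day 4 and all 5 in each tissue at day 7. Atr, the kinase that answers stalled replication, changed early in colon: it lay at 4.74, 5.04 and 5.51 CPM (lowest, median and highest of 6 libraries) in non-irradiated rats, at 8.73, 10.5 and 11.4 at day 4 and at 10.6, 16.5 and 19.5 at day 7. No irradiated library overlapped the non-irradiated ones, and the log2 fold change was 1.02 ± 0.19 (SE) at day 4 (adjusted p = 4.13e-05) and 1.61 ± 0.19 at day 7 (adjusted p = 5.26e-09). In jejunum Atr was at 3.24, 4.35 and 5.74 CPM without irradiation, 3.49, 5.98 and 10.4 at day 4 and 7.91, 11.9 and 19.5 at day 7. The day 4 libraries overlapped the non-irradiated ones (0.51 ± 0.23, adjusted p = 0.0663) and the day 7 libraries did not (1.52 ± 0.23, adjusted p = 1.47e-06).

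Chek1, the kinase that Atr activates to hold cells before mitosis, rose at both days in both tissues. In colon it was at 2.40, 3.18 and 4.19 CPM without irradiation, at 5.27, 6.02 and 6.59 at day 4 and at 6.15, 9.58 and 10.2 at day 7, so that all irradiated libraries were higher. In jejunum it was at 2.40, 3.31 and 4.21 CPM without irradiation and at 4.75, 5.88 and 9.30 at day 4. Of the 40 genes, only Chek1 had all day 4 jejunum libraries above the non-irradiated ones, a share not counted over all genes. At day 7 its libraries spread from 3.54 through 6.16 to 12.3 CPM and overlapped them. Its log2 fold changes were 0.88 ± 0.20 and 1.40 ± 0.20 in colon and 0.95 ± 0.28 and 1.16 ± 0.28 in jejunum (adjusted p = 0.000667, 3.62e-07, 0.00664 and 0.000671).

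Atm and Chek2, the kinase of double-strand breaks and the kinase that it activates, were called at day 7 and not at day 4. Atm in colon was at 9.16, 9.94 and 12.2 CPM without irradiation, 7.65, 9.25 and 11.0 at day 4 and 9.81, 14.9 and 16.3 at day 7. The day 4 difference of Atm was -0.12 ± 0.12 (adjusted p = 0.412) and the day 7 difference 0.47 ± 0.12 (adjusted p = 0.00107), with overlap in both. In jejunum Atm went from a median of 6.64 CPM (5.81 to 8.66) to 6.52 (5.34 to 7.73) and 8.76 (6.81 to 11.0), with a log2 fold change of 0.40 ± 0.16 at day 7 (adjusted p = 0.0344). Chek2 rose further. In colon it was at 3.58, 5.70 and 8.20 CPM without irradiation and at 8.70, 12.3 and 14.7 at day 7, without overlap (1.06 ± 0.18, adjusted p = 7.2e-06), and at day 4 it was at 4.56, 6.52 and 7.60 (0.19 ± 0.18, adjusted p = 0.415). In jejunum Chek2 was at 2.79, 3.41 and 4.08 CPM without irradiation, 1.84, 3.35 and 7.21 at day 4 and 5.53, 8.90 and 13.4 at day 7, where it no longer overlapped (1.45 ± 0.29, adjusted p = 9.05e-05).

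Prkdc, the catalytic subunit of the DNA-dependent kinase of end joining, changed more in jejunum. It was at 6.29, 9.31 and 10.2 CPM there without irradiation, 6.69, 12.8 and 16.0 at day 4 and 12.5, 16.4 and 22.4 at day 7, when no library overlapped (0.49 ± 0.18, adjusted p = 0.0299, and 0.99 ± 0.18, adjusted p = 3.13e-05). In colon Prkdc was at 12.5, 14.3 and 16.3 CPM without irradiation, 12.5, 14.8 and 17.4 at day 4 and 16.9, 18.3 and 20.6 at day 7 (0.07 ± 0.10, adjusted p = 0.543, and 0.37 ± 0.10, adjusted p = 0.00139).

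Mre11, Rad50 and Nbn form the complex that first binds a broken end. In colon none of the 3 was called at day 4 by edgeR and all 3 were called higher at day 7, by log2 fold changes of 0.42 ± 0.09, 0.25 ± 0.10 and 0.40 ± 0.08. In jejunum all 3 rose at both days, Rad50 from 4.01, 5.04 and 7.2 CPM without irradiation to 3.88, 9.5 and 16.2 at day 4 and 12.0, 15.5 and 22.8 at day 7. The log2 fold change of Rad50 in jejunum was 0.86 ± 0.25 at day 4 (adjusted p = 0.00511) and 1.66 ± 0.25 at day 7 (adjusted p = 1.48e-06), when the groups no longer overlapped. Those of Mre11 were 0.56 ± 0.18 and 1.06 ± 0.18, and those of Nbn 0.74 ± 0.16 and 1.25 ± 0.17.

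The 4 proteins that build the platform on chromatin around a break moved apart from each other. Mdc1, the scaffold that binds marked chromatin, rose at day 7 in both tissues, from a median of 9.16 CPM (8.68 to 10.1) to 18.3 (11.2 to 25.5) in colon and from 1.78 (1.05 to 1.86) to 10.0 (4.90 to 18.2) in jejunum. The groups did not overlap in either tissue, and the log2 fold changes of Mdc1 were 1.00 ± 0.16 (adjusted p = 3.28e-06) and 2.80 ± 0.39 (adjusted p = 6.43e-07). Rnf8, the first ubiquitin ligase at a break, fell in colon at both days. It lay at 17.9, 18.2 and 20.2 CPM without irradiation, at 9.13, 10.8 and 14.2 at day 4 and at 8.75, 12.3 and 13.1 at day 7, without overlap (-0.74 ± 0.10, adjusted p = 6.02e-07, and -0.68 ± 0.10, adjusted p = 6.39e-07). In jejunum Rnf8 was -0.28 ± 0.12 and -0.17 ± 0.12, with neither called. Rnf168, the ligase that acts after Rnf8, fell in colon at day 4 (-0.39 ± 0.09, adjusted p = 0.000444) and stood at -0.07 ± 0.09 at day 7. Tp53bp1, which steers ends towards joining, rose in jejunum (0.53 ± 0.16 and 0.62 ± 0.16) and was not called in colon (-0.20 ± 0.09 and -0.18 ± 0.09).

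Among the 10 genes of homologous recombination, in colon 7 rose and 1 fell at day 4 and 9 rose at day 7; in jejunum 5 rose at day 4 and 9 at day 7. Brca1, the ligase that licenses the resection of ends, was at 3.22, 4.09 and 6.47 CPM in non-irradiated colon, 5.97, 6.44 and 8.99 at day 4 and 10.6, 14.5 and 16.0 at day 7. Only the day 7 libraries of Brca1 stood clear of the non-irradiated ones (0.69 ± 0.19, adjusted p = 0.0032, and 1.67 ± 0.19, adjusted p = 3.82e-09). In jejunum Brca1 was at 2.25, 3.36 and 4.25 CPM, 3.20, 4.49 and 6.96 at day 4 (0.53 ± 0.25, adjusted p = 0.0861) and 8.21, 10.4 and 15.5 at day 7 (1.83 ± 0.25, adjusted p = 5.05e-07). The day 7 jejunum libraries again stood clear. Bard1, the partner of Brca1, rose at both days in both tissues. In colon it went from 1.07, 1.78 and 2.87 CPM to 4.95, 7.11 and 8.98 at day 7 (1.92 ± 0.23, adjusted p = 9.74e-09). In jejunum Bard1 rose by 1.18 ± 0.48 and 2.39 ± 0.47. Bard1 in non-irradiated jejunum rests on 49 counts over the 6 libraries.

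Exo1, a nuclease that resects ends, and Xrcc2, a recombination gene, were among the 4 highest log2 fold changes of the 40 in each irradiation comparison. Exo1 in colon was at 1.23, 2.02 and 2.89 CPM without irradiation, 3.95, 5.32 and 5.97 at day 4 and 4.71, 10.9 and 13.0 at day 7, with no overlap at either day (1.27 ± 0.29, adjusted p = 0.000531, and 2.23 ± 0.29, adjusted p = 4.75e-08). In jejunum Exo1 was at 0.3, 0.722 and 1.53 CPM, then 0.582, 1.61 and 6.33, then 2.52, 5.93 and 13.0, and stood clear at day 7 (3.12 ± 0.52, adjusted p = 7.87e-06). Xrcc2 in colon was at 0.509, 1.40 and 1.87 CPM, then 1.97, 2.82 and 3.45, then 4.09, 5.13 and 6.62, with log2 fold changes of 1.10 ± 0.26 (adjusted p = 0.000998) and 2.03 ± 0.27 (adjusted p = 5.67e-08). The 3 colon groups of Xrcc2 did not overlap. In jejunum Xrcc2 was at 0.0872, 0.326 and 0.5 CPM without irradiation, 22 counts over 6 libraries, and at 1.19, 2.47 and 5.52 at day 7 (3.36 ± 0.61, adjusted p = 2.48e-05). At day 4 its jejunum libraries ran from 0 to 2.72 CPM around a median of 1.00 (1.95 ± 0.63, adjusted p = 0.0119), with overlap.

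The other recombination genes rose with them at day 7, apart from Xrcc3. Brca2, a mediator of recombination, changed by 1.05 ± 0.19 in colon and 1.51 ± 0.35 in jejunum. Its partner Palb2 changed by 1.47 ± 0.18 and 2.09 ± 0.39, Rad51c by 0.63 ± 0.19 and 1.84 ± 0.40, the translocase Rad54l by 1.60 ± 0.23 and 2.81 ± 0.48, and the helicase Blm by 1.61 ± 0.19 and 1.23 ± 0.30. Xrcc3 fell in colon at day 4, from 5.31, 8.19 and 11.1 CPM to 2.01, 3.95 and 5.06 without overlap (-1.09 ± 0.20, adjusted p = 4.13e-05). It was back at 5.72, 7.19 and 8.45 CPM at day 7 (-0.18 ± 0.19, adjusted p = 0.429), and in jejunum Xrcc3 was not called at either day.

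The Fanconi genes Fancd2 and Fanci encode the pair of proteins that are ubiquitinated at a crosslink, and Fanca belongs to the ligase complex that does it. Fanci in colon was at 3.00, 4.49 and 6.69 CPM without irradiation, 6.62, 7.09 and 8.68 at day 4 and 11.7, 17.9 and 19.5 at day 7 (0.71 ± 0.20, adjusted p = 0.00349, and 1.90 ± 0.20, adjusted p = 8.5e-10). In jejunum Fanci was at 0.180, 0.958 and 1.75 CPM, then 1.16, 2.57 and 6.01, then 3.64, 7.45 and 14.7, and the day 7 libraries stood clear (1.69 ± 0.45, adjusted p = 0.00296, and 3.09 ± 0.45, adjusted p = 1.17e-06). Fancd2 was at 0.3, 1.59 and 2.67 CPM in jejunum without irradiation, 0.969, 3.38 and 11.8 at day 4 and 5.27, 7.67 and 16.5 at day 7 (1.56 ± 0.45, adjusted p = 0.00509, and 2.72 ± 0.45, adjusted p = 5.77e-06). The 11.8 CPM is the day 4 replicate that stood apart. Fanca was called at day 7 alone, at 1.14 ± 0.17 in colon and 1.13 ± 0.28 in jejunum.

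**Figure D2:**
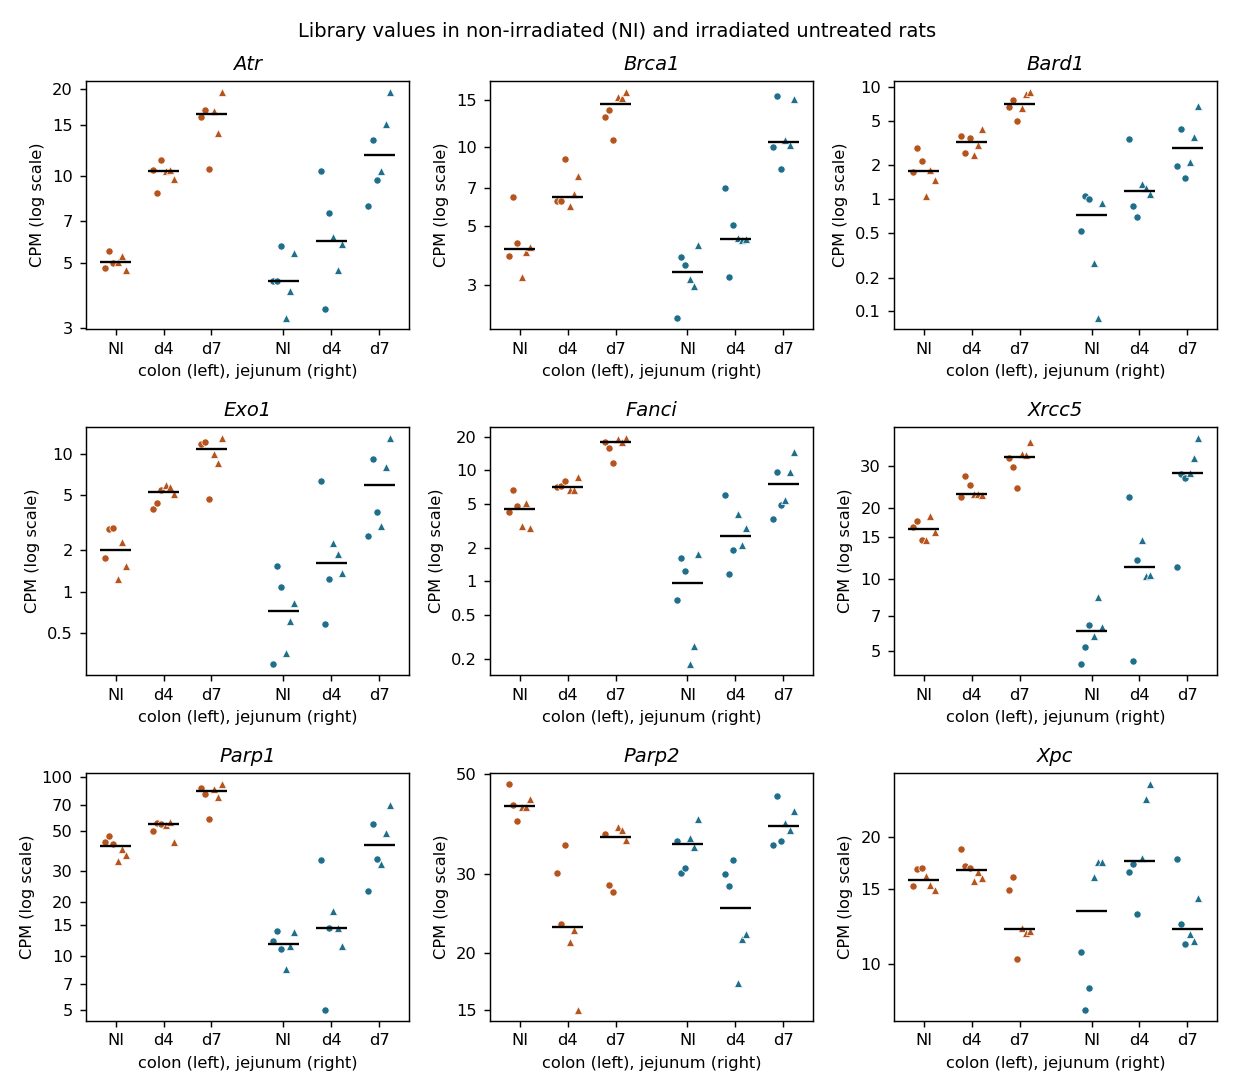
Each panel shows the CPM (log axis) of a gene in the 6 libraries of the non-irradiated (NI), day 4 and day 7 untreated groups of colon (brown) and jejunum (blue), with circles for name series 1, triangles for series 2 and a bar at the median. Atr in colon steps up from a median of 5.04 to 10.5 and 16.5 CPM, and Parp2 goes down from 42.4 to 22.9 CPM at day 4 and back to 36.3 CPM.

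The genes of end joining did not all move together. Xrcc5 and Xrcc6, the Ku proteins that cap an end, rose. Xrcc5 in jejunum was at 4.42, 6.04 and 8.46 CPM without irradiation, 4.56, 11.2 and 22.3 at day 4 and 11.3, 27.9 and 39.2 at day 7 (1.05 ± 0.26, adjusted p = 0.00138, and 2.20 ± 0.26, adjusted p = 3.45e-08). In colon Xrcc5 rose from 14.6, 16.3 and 18.5 CPM to 22.2, 22.9 and 27.2 at day 4, without overlap (0.55 ± 0.09, adjusted p = 9.01e-06). Xrcc6 was called at day 7 alone (0.75 ± 0.15 in colon, 1.61 ± 0.26 in jejunum). The late-step genes Lig4, Xrcc4 and Nhej1 rose less than the Ku genes at day 7 or did not rise. Prkdc, given above, rose in colon at day 7 about as much as Xrcc4 and Nhej1, so the changes did not sort by step. Lig4, the ligase, was lower in colon at day 7, with 35.6, 44.5 and 57.2 CPM without irradiation and 28.5, 34.7 and 37.3 after it (-0.40 ± 0.11, adjusted p = 0.0015), and was not called in jejunum (-0.32 ± 0.22). Its partner Xrcc4 rose at day 7 in both tissues (0.45 ± 0.14 and 0.32 ± 0.13), and Nhej1, which bridges the ends, rose at day 7 in colon (0.38 ± 0.13).

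In the repair of single-strand breaks the poly(ADP-ribose) polymerases moved in opposite directions at day 4. Parp1 rose in colon from 34.2, 41.2 and 46.8 CPM to 43.4, 54.8 and 56.3 at day 4 and 58.5, 83.6 and 91.9 at day 7 (0.38 ± 0.12, adjusted p = 0.012, and 0.97 ± 0.12, adjusted p = 3.67e-08). In jejunum Parp1 rose at day 7 (1.95 ± 0.33, adjusted p = 8.45e-06). Parp2 fell in colon from 39.2, 42.4 and 47.5 CPM to 15.0, 22.9 and 34.8 at day 4, below every non-irradiated library (-0.81 ± 0.16, adjusted p = 0.000102). At day 7 Parp2 was at 27.4, 36.3 and 38.0 CPM, still below every non-irradiated library and not called (-0.35 ± 0.16, adjusted p = 0.0516). In jejunum Parp2 was at 30.1, 34.9 and 39.7 CPM without irradiation, 17.1, 25.1 and 32.2 at day 4 and 34.7, 38.2 and 44.5 at day 7, and was called at day 4 (-0.45 ± 0.14, adjusted p = 0.00988). Xrcc1, the scaffold of this repair, rose at both days in both tissues, by 0.45 ± 0.13 and 0.56 ± 0.13 in colon and 0.88 ± 0.19 and 0.52 ± 0.19 in jejunum.

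Of the mismatch repair genes, Msh6, which recognises the mismatch, rose in all 4 comparisons, from a median of 4.63 CPM (2.61 to 6.00) to 10.1 (2.81 to 22.8) and 20.2 (11.7 to 47) in jejunum (1.26 ± 0.39 and 2.41 ± 0.40). Pms2, which nicks the strand, was called in none of the 4, with differences from -0.01 ± 0.11 to 0.33 ± 0.15. Ogg1, the glycosylase of oxidized guanine, fell in colon at day 4 (-0.56 ± 0.14, adjusted p = 0.00197) from 7.28, 8.59 and 9.34 CPM to 4.29, 5.72 and 6.85, without overlap. At day 7 Ogg1 stood at 0.01 ± 0.14 in colon, and in jejunum it was higher at 0.45 ± 0.17 (adjusted p = 0.0245).

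Xpc, Ddb2 and Rrm2b have been described as targets of p53, and whether p53 acts on them in these rats was not tested. Xpc, which detects distorted DNA for excision repair, was at 7.80, 13.3 and 17.4 CPM in non-irradiated jejunum, 13.1, 17.5 and 26.6 at day 4 and 11.2, 12.1 and 17.7 at day 7. It was called higher at day 4 (0.60 ± 0.16, adjusted p = 0.0036) and not at day 7 (0.08 ± 0.16, adjusted p = 0.706), with overlap at both. The non-irradiated jejunum libraries split by name series, at 7.80 to 10.6 CPM in series 1 and 16.0 to 17.4 in series 2. Within each series all day 4 libraries lay above them. At day 7 all lay above them in series 1 (11.2 to 17.7 CPM) and all below them in series 2 (11.3 to 14.3 CPM). In colon Xpc was at 14.9, 15.8 and 16.8 CPM, 15.7, 16.6 and 18.7 at day 4 and 10.3, 12.1 and 16.0 at day 7, where it was called lower (-0.32 ± 0.11, adjusted p = 0.0133). Ddb2, the sensor of ultraviolet lesions, was low throughout, at 1.63, 2.04 and 2.43 CPM in non-irradiated colon, 0.793, 1.10 and 1.69 at day 4 and 1.19, 1.51 and 2.11 at day 7. The day 4 difference of Ddb2 was called lower in colon (-0.79 ± 0.26, adjusted p = 0.0141). In jejunum Ddb2 was at 0.436, 0.616 and 0.916 CPM, 0.137, 0.620 and 0.872 at day 4 and 0.668, 1.13 and 2.13 at day 7, where it was called higher (0.91 ± 0.33, adjusted p = 0.0187).

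Polk, a polymerase that copies past bulky lesions, was called in colon at day 7 alone, at 3.51, 4.95 and 6.33 CPM without irradiation and 5.69, 6.76 and 9.23 after it (0.51 ± 0.16, adjusted p = 0.00544). Its colon values at day 4 were 4.38, 5.28 and 7.73 CPM, and its jejunum medians were 4.38, 4.69 and 4.81 CPM. The non-irradiated jejunum libraries of Polk split by series, at 5.43 to 6.73 CPM in series 1 and 2.36 to 3.33 in series 2. At day 7 all lay below them in series 1 (at most 5.21 CPM) and all above them in series 2 (at least 4.41 CPM). The jejunum medians of Polk therefore hide opposite differences by series at day 7. Rrm2b, the p53-induced subunit of ribonucleotide reductase, rose in colon, from 11.3, 12.6 and 14.6 CPM to 14.3, 16.3 and 19.8 at day 4 and 13.9, 15.6 and 17.5 at day 7 (0.41 ± 0.10, adjusted p = 0.00144, and 0.27 ± 0.10, adjusted p = 0.0234). In jejunum Rrm2b went from a median of 8.48 CPM (6.93 to 10.4) to 8.83 (8.05 to 11.3) and 9.12 (7.63 to 11.0), and neither day was called. The tissues' changes of Rrm2b and Polk were not called different at either day. For reference, of 15 other p53 targets, such as Cdkn1a, 14 were higher and 1 lower in colon at day 4, 8 and 1 at day 7, and in jejunum 10 and 1 at day 4 and 5 and 8 at day 7.

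Genes of the same pathways outside the 40, from a list of 108 in the tables (107 tested in jejunum), moved in both directions. In colon 21 of 108 were higher and 19 lower at day 4, and 48 higher and 31 lower at day 7, with medians of 0.04 and 0.14. In jejunum 40 of 107 were higher and 11 lower at day 4, and 57 and 10 at day 7, with medians of 0.27 and 0.44. The background shares are those given above. At day 4 the highest in both tissues was Mgmt, which removes alkyl groups from guanine, at a mean of 3.94 and then 29.2 CPM in colon (log2 fold change 2.89) and 3.06 and then 26.2 CPM in jejunum (3.11). Next at day 4 stood Rad54b, a translocase of recombination (1.94 in colon and 3.09 in jejunum), with Rad18, the ligase that calls translesion polymerases (1.36), in colon and Ube2t, the conjugating enzyme of the Fanconi step (2.27), in jejunum. At day 7 the highest in colon were Clspn, the adaptor through which Atr reaches Chek1 (2.40), Rad18 (2.26) and the helicase Brip1 (2.21). In jejunum at day 7 they were Clspn (3.82), Ube2t (3.53) and Polq, the polymerase of a backup end joining (3.31).

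The lowest called genes of that list in colon at day 4 were Xpa, the scaffold of excision repair (-0.97, from a mean of 6.51 to 3.35 CPM), Alkbh2, which reverses alkylation (-0.91), and the nuclease Dna2 (-0.68). In colon at day 7 they were Xpa (-1.46), Rev3l, the catalytic subunit of a translesion polymerase (-1.04), and Alkbh2 (-1.0). In jejunum they were Parp3 (-1.13), the end joining polymerase Poll (-0.77) and the glycosylase Neil1 (-0.66) at day 4, and Paxx, an accessory of Ku (-1.18), the shieldin subunit Shld1 (-0.96) and Rnf169 (-0.64) at day 7.

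Other measures moved with these changes. The summed level of the 13 recombination and Fanconi genes had a median of 47.6 CPM in non-irradiated colon, 60.6 at day 4 and 133 at day 7, and of 21.2, 29.9 and 64.8 CPM in jejunum. The 21 proliferation genes (Mki67, Top2a, cyclins and MCM subunits among them) had medians of 340, 537 and 1266 CPM in colon and 99.6, 217 and 649 in jejunum in the same order. All 21 were called higher at day 7 in both tissues, with medians of 1.93 and 2.94 on the log2 scale, and 16 and 18 of 21 at day 4. The share of mitochondrial counts fell with them, from 10.4 to 14.2% in non-irradiated colon to 7.80 to 10.8% at day 4 and 3.24 to 4.82% at day 7, without overlap between day 7 and the others. In jejunum it was 5.82 to 20.9%, 7.19 to 23.5% and 3.66 to 8.70%.

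With the proliferation sum as a term in the model, the calls among the 40 went from 22 to 18 in colon at day 4 (6 higher and 12 lower), from 33 to 12 at day 7 (4 and 8), from 18 to 12 in jejunum at day 4 (4 and 8) and from 30 to 2 at day 7 (Xrcc4 at 0.70 and Xrcc5 at 0.70). Lower in colon at both days in that fit were Rnf8 (-0.90 and -1.07), Xrcc3 (-1.40 and -0.92), Rnf168, Rad50, Chek2 and Pms2, and higher at both days were Xrcc4, Xrcc5, Nhej1 and Rrm2b (0.61 and 0.80). With the mitochondrial share as a term the calls in colon were 9 at day 4 and 1 at day 7 (Xrcc5, 0.68), and 16 and 32 in jejunum. The shares of all genes called in these fits are not given here, so the lost calls cannot be read as particular to the 40. These terms differ between the groups, and their part in the changes was not tested.

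Summed levels of cell type markers also differed between the groups. In colon the 4 neutrophil markers summed to 0.2 to 0.9 CPM without irradiation, 6.5 to 97.0 at day 4 and 17.5 to 38.3 at day 7, and the 6 fibroblast markers to 4.2 to 10.9, 24.8 to 87.2 and 11.1 to 215 CPM. The 5 T cell markers in colon summed to 1.67 to 5.45, 0.886 to 4.8 and 0.336 to 0.673 CPM. In jejunum, 6 of 7 jejunum markers were in the tables, and they summed to 82715 to 96323 CPM without irradiation, 48033 to 171856 at day 4 and 12715 to 59633 at day 7, below every non-irradiated library. The T cell markers in jejunum summed to 1.83 to 26.7, 0.615 to 4.76 and 0.0862 to 0.560 CPM, and the neutrophil markers, 3 of which had 0 counts without irradiation, to 0.0872 to 1.98, 1.04 to 14.5 and 0.658 to 8.33 CPM. Of 7 general epithelium markers 6 were in the tables, and they summed to 10361 to 12207, 9588 to 15291 and 11310 to 15077 CPM in colon and 19132 to 24783, 14244 to 26871 and 13019 to 21621 CPM in jejunum. The part of these cells in the changes was not tested.

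Within a name series, 3 libraries stood against 3. In colon 9 of 40 genes were called at day 4 in series 1 and 19 in series 2, and 29 and 27 at day 7. In jejunum 3 were called at day 4 in series 1 and 14 in series 2, and 21 and 28 at day 7. Without day 4 replicate 1 of the untreated jejunum, 10 of 40 were called at day 4 rather than 18. Fanci (1.32), Chek1 (0.79), Xrcc5 (0.75), Xrcc1 (0.69), Rad50 (0.60), Xpc (0.60), Nbn (0.59) and Tp53bp1 (0.42) were then higher and Parp2 (-0.51) and Rnf168 (-0.30) lower. Xrcc2, Exo1, Fancd2, Bard1, Palb2, Rad54l, Msh6, Prkdc and Mre11 were no longer called at day 4 in jejunum. Leaving out day 4 replicate 2 instead gave 23 calls there. The shares of all genes called in these fits are not given here, so the changed counts cannot be read as particular to the 40.

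Between day 4 and day 7 the rise went on in all irradiated arms. In untreated rats 27 genes were higher at day 7 and 1 lower in colon, against 18% and 18.5% of all genes, and 27 and 1 in jejunum, against 20.3% and 20.7% of all genes, with medians of 0.49 and 0.79 against -0.01 and 0.03 over all genes. The gene that fell was Xpc in both tissues (-0.41 ± 0.11, adjusted p = 0.00425, and -0.52 ± 0.16, adjusted p = 0.0105). In colon the gains were largest for Fanca (1.26 ± 0.17), Fancd2 (1.21 ± 0.20), Fanci (1.18 ± 0.19), Blm (1.14 ± 0.18) and Bard1 (1.13 ± 0.22), and in jejunum for Mdc1 (1.92 ± 0.37), Exo1 (1.56 ± 0.47), Rad54l (1.47 ± 0.44) and Parp1 (1.46 ± 0.32). Of the 15 p53 targets 13 fell in colon and 12 in jejunum over the same days, and 21 and 20 of the 21 proliferation genes rose. Without day 7 replicate 6 of the jejunum 17 genes were called there rather than 28, and Brca1 (1.18), Parp1 (1.25), Mdc1 (1.71) and Xpc (-0.53) were among them. Series 1 alone gave 13 calls in colon and, by edgeR, 0 in jejunum, where 6 of the 40 were at an unadjusted p under 0.05, and series 2 alone gave 22 and 28. The fits with fewer libraries have no share of all genes beside them here.

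The other 4 arms are separate libraries from the untreated rats. In colon 23 genes were higher at day 7 than at day 4 under oral vehicle (12.7% of all genes), 19 under powder (26.2%), 29 under injected vehicle (16%) and 29 under injection (19.2%). In jejunum the counts were 18 (11.2% of all genes), 13 (18.3%), 27 (25.5%) and 24 (19.7%) in the same order. In colon 15 genes were called higher in all 5 arms: Atr, Mdc1, Nbn, Brca1, Bard1, Palb2, Rad54l, Blm, Exo1, Fanca, Fancd2, Fanci, Xrcc2, Xrcc5 and Parp1. In jejunum 9 genes were: Atr, Chek2, Prkdc, Brca1, Fanci, Xrcc5, Xrcc6, Parp1 and Parp2. Atr, Brca1, Fanci, Parp1 and Xrcc5 were in both lists. The share of all genes called in all 5 arms was not counted, so these lists have no background beside them.

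Brca1 rose by 0.82 to 1.19 on the log2 scale over the 5 arms in colon and 0.84 to 1.3 in jejunum, Fanci by 0.88 to 1.18 and 1.17 to 1.40, and Xrcc5 by 0.26 to 0.49 and 0.69 to 1.15. Under injection, for example, the median of Brca1 in colon went from 6.87 CPM (5.22 to 9.92) to 17.5 (10.9 to 20.8), and under powder from 8.07 (5.06 to 10.6) to 14.8 (7.99 to 18.4). Lig4 and Xpc had negative differences in all 5 arms of both tissues, and each was called lower in 3 arms of each tissue. Xrcc1 was negative in all 5 arms of the jejunum (-0.92 to -0.37), with 3 called. Chek1, in contrast, was called higher in 4 arms in colon (0.42 to 0.97 over the 5) and in 0 arms in jejunum by edgeR (0.22 to 0.41).

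**Figure D3:**
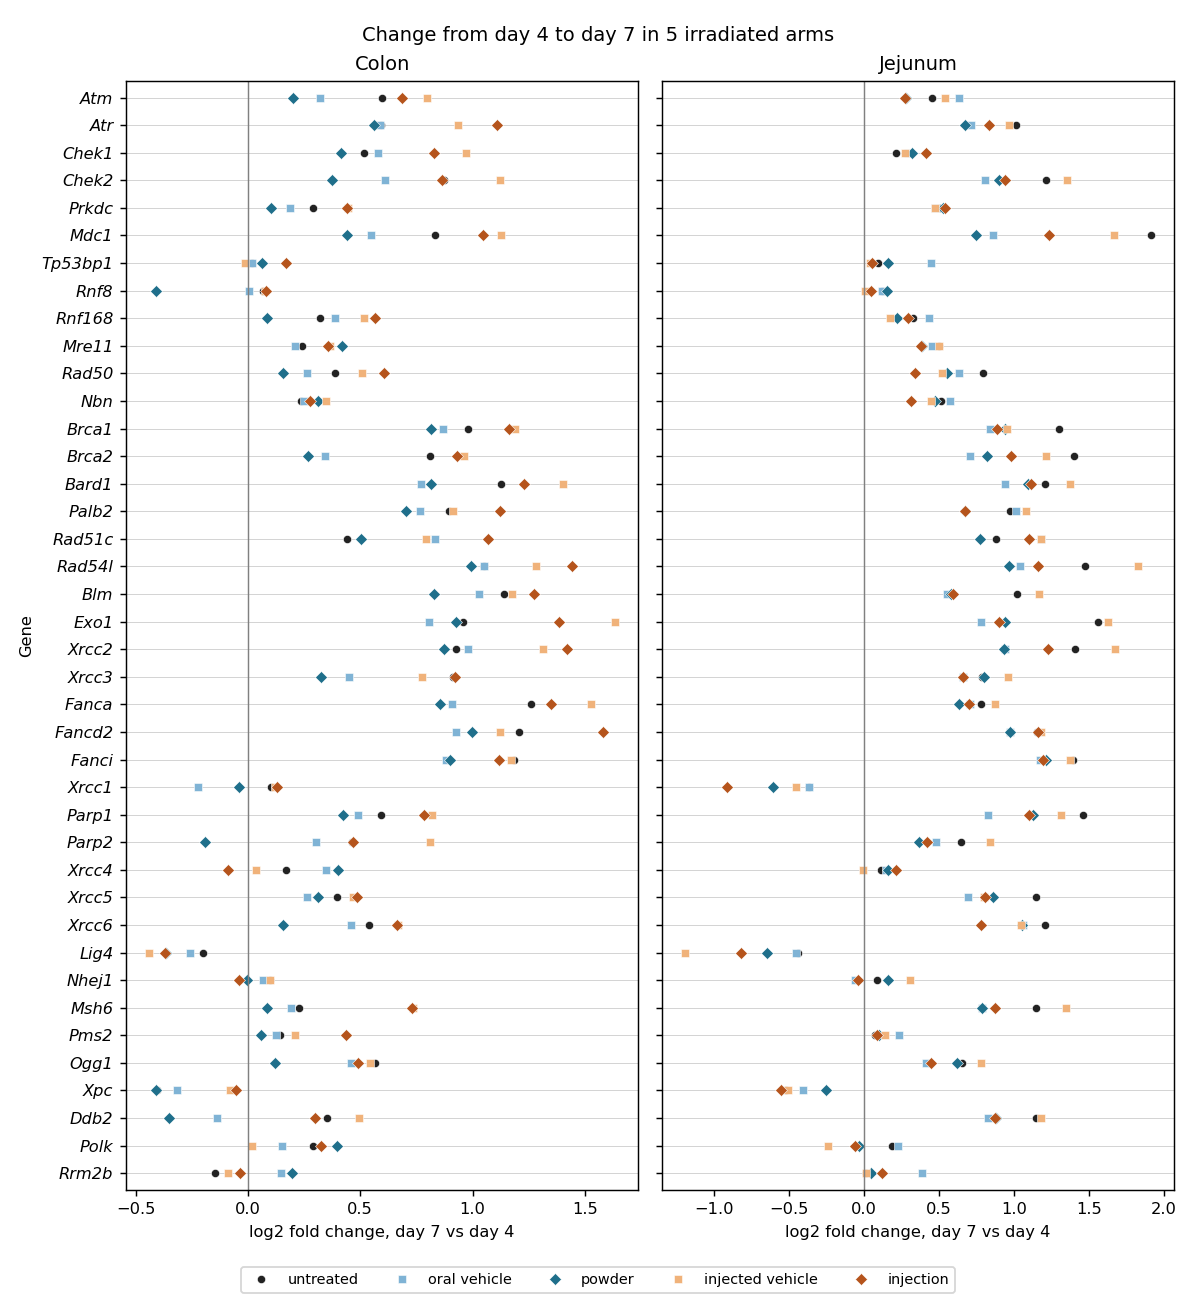
Each row is a gene and each point the log2 fold change from day 4 to day 7 in an irradiated arm (n = 6 against 6 libraries), with colon on the left and jejunum on the right. Recombination and Fanconi genes sit right of 0 in every arm, while Lig4 and Xpc sit left of 0 in every arm of both tissues.

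**Figure D4:**
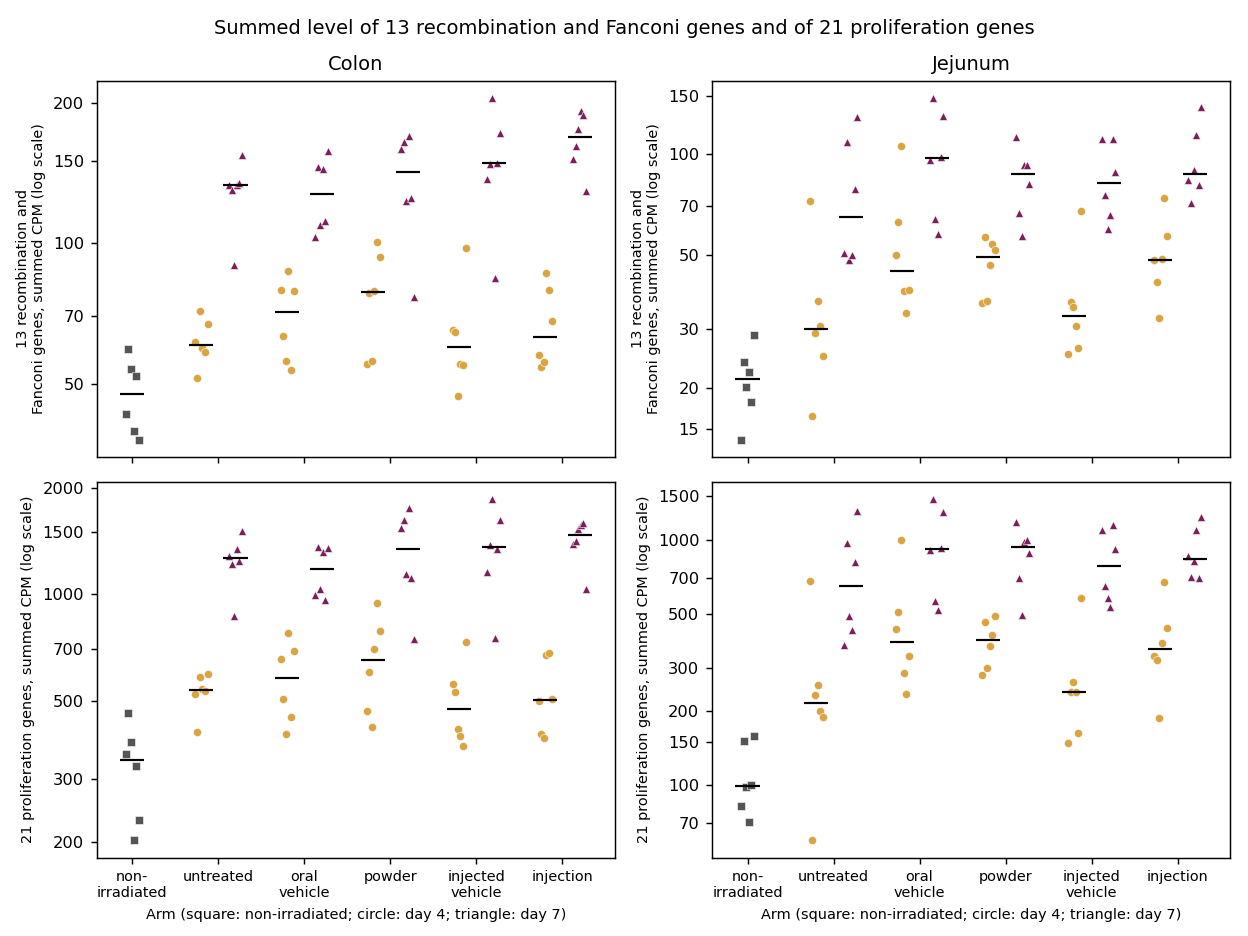
Points are libraries and bars medians of the summed CPM (log axis) of 13 recombination and Fanconi genes (top) and 21 proliferation genes (bottom) for the arms on the x axis, with squares for non-irradiated, circles for day 4 and triangles for day 7. The day 7 medians of the 13 genes lie at 128 to 169 CPM in colon and at 64.8 to 97.3 CPM in jejunum, above the day 4 median of the same arm in each case.

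The tissues differed before irradiation. In non-irradiated jejunum 31 of the 40 genes were lower than in non-irradiated colon and 2 higher, against 41.1% and 29.4% of all genes, with a median of -1.01 against -0.22 over all genes for non-irradiated jejunum versus non-irradiated colon. Msh6 was at 22.6, 26.8 and 31.5 CPM in colon and 2.61, 4.63 and 6.00 in jejunum, without overlap (-2.69 ± 0.33, adjusted p = 8.86e-11). Mdc1 (-2.65 ± 0.33), Fanci (-2.30 ± 0.37) and Rad50 (-2.15 ± 0.21) followed. The 2 that were higher in jejunum were Xrcc4 (0.91 ± 0.15) and Nhej1 (1.23 ± 0.16), which act together with Lig4 at the end of end joining. Of the 21 proliferation genes 19 were also lower in jejunum.

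The change in jejunum minus that in colon was tested for each gene. At day 4 this difference was called positive for 5 of 40 genes (Rad50, Tp53bp1, Nbn, Xpc and Rnf8), a share no higher than the 13.6% of all genes. At day 7 it was called positive for 18, against 25.4% of all genes, with the largest for Mdc1 (1.89 ± 0.41), Msh6 (1.85 ± 0.42), Rad50 (1.49 ± 0.26), Ddb2 (1.44 ± 0.42) and Xrcc5 (1.34 ± 0.27). The medians were 0.44 and 0.61, against 0.11 and 0.18 over all genes. A positive difference is not always a larger rise: at day 7 Rnf8 was at -0.17 in jejunum and -0.68 in colon, Xpc at 0.08 and -0.32, and Parp2 at 0.19 and -0.35. This test shares its non-irradiated libraries with the comparison of the tissues before irradiation, in which Mdc1, Msh6 and Rad50 were lower in jejunum. The results of those comparisons are therefore not independent. The labels do not say whether the colon and jejunum libraries come from the same rats.

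Few of these genes were called between a Kushen preparation and its vehicle. In 12 comparisons, with vehicle against untreated included, calls were made in 1, powder against oral vehicle in colon at day 4, where 3 of 40 genes were called, all higher, against 11.8% of all genes called either way and 4.89% called higher. The 3 were Parp2, Ogg1 and Rnf8. They had all fallen in colon at day 4 after irradiation alone, as had 22.3% of all genes. The share of all such lowered genes that was higher under powder was not counted. The pattern therefore cannot be read as particular to these genes. Parp2 was at 16.6, 23.3 and 35.4 CPM under vehicle and 28.6, 37.6 and 41.1 under powder (0.55 ± 0.16, adjusted p = 0.0211), with overlap. Ogg1 was at 4.43, 5.74 and 6.69 CPM under vehicle and 6.18, 7.71 and 9.18 under powder (0.42 ± 0.14, adjusted p = 0.0499). Rnf8 was at 10.2, 11.1 and 12.8 CPM under vehicle and 12.2, 14.0 and 16.2 under powder (0.32 ± 0.10, adjusted p = 0.0358), and both genes overlapped between the groups. In non-irradiated colon the medians of these genes were 42.4, 8.59 and 18.2 CPM. Ddb2 (0.61 ± 0.26), Rnf168 (0.23 ± 0.09) and Xrcc6 (0.31 ± 0.14) were at an unadjusted p under 0.05 and were not called.

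The differences of the 3 genes had the same sign in both name series, without a call in either. They were 0.55 and 0.52 for Parp2, 0.46 and 0.35 for Ogg1, and 0.24 and 0.37 for Rnf8 in series 1 and series 2. With no filter on low counts, Parp2 (adjusted p = 0.0319) was called and Rnf8 (adjusted p = 0.054) and Ogg1 (adjusted p = 0.0751) were not. DESeq2 called all 3. At day 7 none was called between powder and vehicle, with Parp2 at medians of 32.9 and 31.1 CPM. The median difference of the 40 genes at day 4 in colon was 0.12, against 0.01 over all genes.

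In the other 11 comparisons edgeR called 0 of 40 genes, and so did DESeq2. For powder the shares of all genes called were 0% in colon at day 7 and 0.008% in jejunum at day 4 and at day 7, and 0, 0 and 2 of the 40 were at an unadjusted p under 0.05. The smallest unadjusted p with powder was that of Lig4 in colon at day 7 (-0.19 ± 0.11) and of Nhej1 in jejunum at day 4 (-0.23 ± 0.17). In jejunum at day 7 it was that of Atm (-0.43 ± 0.16, adjusted p = 1 when rounded), at 7.72, 11.8 and 15.4 CPM under vehicle and 7.71, 8.66 and 9.48 under powder. For injection the share of all genes called was 0% in each tissue at each day, and 0 and 0 of the 40 in colon and 6 and 0 in jejunum at day 4 and day 7 were at an unadjusted p under 0.05. With injection the smallest p was that of Parp2 in colon at day 4 (0.39), Fancd2 in colon at day 7 (0.44) and Lig4 in jejunum at day 7 (0.26). It was that of Xrcc1 in jejunum at day 4 (0.54 ± 0.16, adjusted p = 0.535), at 22.1, 31.9 and 41.8 CPM under vehicle and 38.6, 45.1 and 51.2 under injection. Oral vehicle against untreated had shares of 0% and 0.00752% in colon and 0% and 0.008% in jejunum at day 4 and day 7, and 2, 0, 12 and 1 of the 40 at an unadjusted p under 0.05. The smallest p was that of Atm in colon at day 4 (0.28), Rrm2b in colon at day 7 (0.20) and Atm in jejunum at day 7 (0.40 ± 0.16). The 12 in jejunum at day 4 were led by Mdc1, at 0.957, 2.44 and 5.63 CPM untreated and 3.75, 5.37 and 12.4 under vehicle (1.16 ± 0.37, adjusted p = 0.421). The shares of all genes given for these comparisons are of calls after adjustment. Shares of all genes at an unadjusted p are not given, so the unadjusted counts of the 40 have no background beside them.

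These comparisons leave room for changes of some size. The 95% intervals of the 40 differences lay within 1 log2 unit of 0 for all 40 genes between powder and vehicle in colon at day 7 and between injection and vehicle in colon at both days. In jejunum they did so for 30 and 31 genes with powder and 28 and 38 with injection, at day 4 and day 7. The highest bound with injection was 1.52, that of Xrcc2 in jejunum at day 4 (difference 0.68), and the lowest with powder was -1.32, that of Bard1 in jejunum at day 4.

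**Figure D5:**
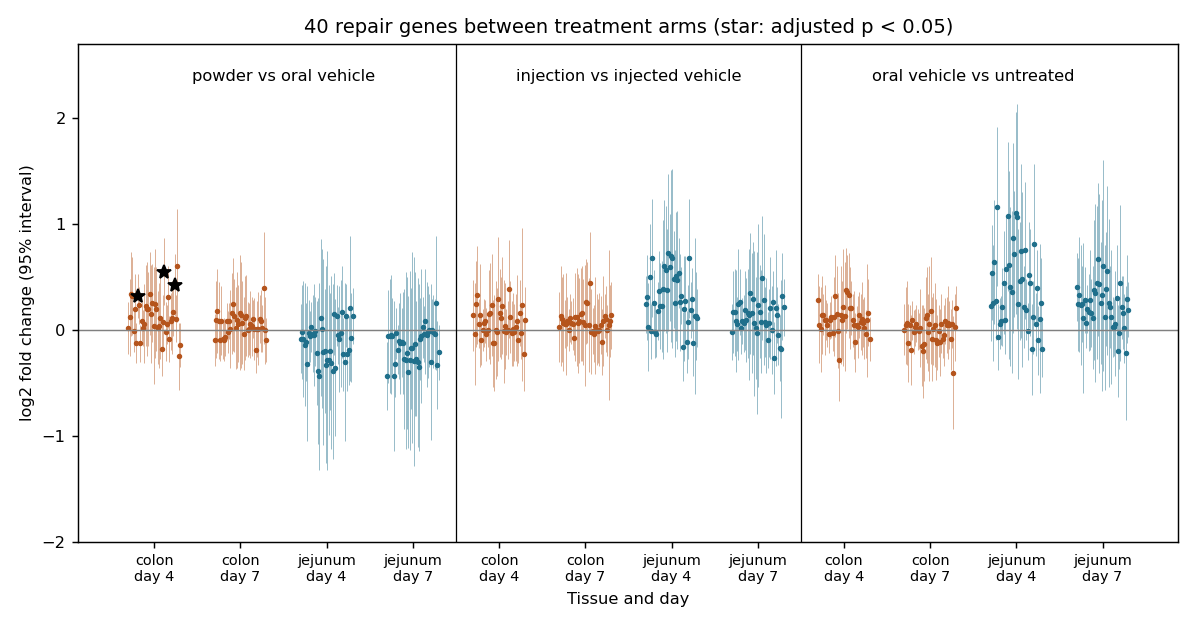
Each point is the log2 fold change of a gene between treatment arms with its 95% interval, for 12 comparisons of 6 against 6 libraries (brown for colon, blue for jejunum), and stars mark an adjusted p under 0.05. The only stars are Parp2 (0.55), Ogg1 (0.42) and Rnf8 (0.32) in colon at day 4 with powder.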

How the data were processed

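Values were the deposited raw counts per gene symbol, which the authors supplied in 2 tables sharing 36 libraries. Reads were aligned with STAR 2.7.10a to mRatBN7.2, per the submitters' processing notes. Not given in the sources used here were the read counter, the annotation and the use of strand, so reads of overlapping genes may not be told apart. Libraries held 17.2 to 19.8 M counts. Groups came from the sample titles. CPM were computed with TMM factors over the 132 libraries. Tests were edgeR 4.0.16 quasi-likelihood tests (R 4.3.3) with Benjamini-Hochberg adjustment over all genes that passed filterByExpr, in 42 libraries per tissue with a term for name series, 24 per tissue for the injected arms and 84 for both tissues. The p-values measure the spread between libraries labelled biological replicates; the labels name no rats. Alternatives were DESeq2 1.42.0, RLE factors, no filter, a replicate block, each series alone, fewer groups, covariates and leaving out libraries. The tests were also run on simulated data. All 40 genes could be named; levels are given for 9 fixed genes and the 3 highest and 3 lowest called per irradiation comparison, and others shown were added after their values were seen. The genes and lists were chosen with earlier results of these data known.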

Additional observations from a re-analysis of the deposited data

Results flagged for a closer look

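In 84 groups of 6 values tested, 3 held a library far from the rest, and chance alone marks about 1 group in 20. Brca1 in non-irradiated colon replicate 2 was at 6.47 CPM, with the nearest library at 4.32. Rrm2b in untreated jejunum at day 4 replicate 4 was at 11.3 CPM, with the nearest at 9.21. Fancd2 in untreated jejunum at day 4 replicate 1 was at 11.8 CPM, with the nearest at 3.84, and that library also had the highest proliferation sum of its group.

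The irradiation effect in jejunum minus that in colon, tested as an edgeR interaction over 84 libraries, was positive at day 4 for Tp53bp1 (0.78 on the log2 scale, adjusted p = 0.001), Rnf8 (0.50, 0.0101), Rad50 (1.05, 0.00256), Nbn (0.63, 0.011) and Xpc (0.55, 0.0312), a share of the 40 no higher than that of all genes. At day 7 the chromatin and end-binding genes with a positive difference were Mdc1 (1.89), Tp53bp1 (0.89), Rnf8 (0.60), Mre11 (0.73), Rad50 (1.49) and Nbn (0.94). In recombination and the Fanconi step they were Rad51c (1.3), Rad54l (1.3) and Fanci (1.28). In end joining they were Prkdc (0.71), Xrcc5 (1.34) and Xrcc6 (0.94), and in single-strand break repair Parp1 (1.07) and Parp2 (0.63). In mismatch and excision repair they were Msh6 (1.85), Ogg1 (0.53), Xpc (0.48) and Ddb2 (1.44). The adjusted p at day 7 ran from 6.43e-06 (Rad50) to 0.0464 (Ogg1).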

How the results depend on the processing

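Of 170 recomputed counts of called genes, 149 stayed within 1.5 times the reported count and 21 did not. Of 475 recomputed values of named genes, 397 kept their side of the threshold without a called value changing sign, 60 lost the call, 4 gained it and 14 reversed. Among the 397 were 19 values, called in neither setting, whose sign differed. The cause was not tested. Series 1 alone gave 9 calls in colon at day 4, 3 in jejunum at day 4, 13 over time in colon and 0 in jejunum, and 0 for powder in colon at day 4, oral vehicle over time in jejunum and powder over time in jejunum. Series 2 alone gave 0 for powder in colon at day 4, 0 for oral vehicle over time in colon, and 3 (colon) and 9 (jejunum) for powder over time; each holds fewer libraries. By edgeR at an unadjusted p under 0.05 these counts of 0 were 6, 5, 3 and 12 in series 1 and 3 and 22 in series 2, in order. Only the 2 groups in the fit gave 10 calls in jejunum at day 4 and 11 over time. The mitochondrial term gave 9 and 1 in colon and 4 over time. The proliferation term gave 12 in colon and 2 in jejunum at day 7, and 7 over time in each tissue. No filter left 1 powder call. With the proliferation term Chek2 reversed in colon at day 4 (-0.37) and day 7 (-0.45) and in jejunum at day 4 (-0.57) and day 7 (-0.40), as did, at day 7, Atm (-0.30 and -0.32), Chek1 (-0.27 and -0.29), Exo1 (-0.19 and -0.23) and Xrcc2 (-0.048 and -0.040) in colon and jejunum. Polk in colon at day 7 was -0.20 with the mitochondrial term, and Xpc in jejunum at day 7 -0.43 in series 2. Leaving out 1 library gave 18 to 22, 31 to 34, 10 to 23 and 26 to 32 calls in the irradiation comparisons, and 25 to 29 and 17 to 30 over time. With a replicate block the counts were within 1.5 times of those reported, with 22 in colon and 17 in jejunum at day 4, and 2 for powder in colon at day 4, where Ogg1 had an adjusted p of 0.0531. Libraries with the same replicate number in different groups of a tissue deviated together little (median correlation 0.00736 in colon and -0.0064 in jejunum, with 2 and 1 of 6 over 0.1). The highest was 0.222, for replicate 3 in colon. In these groups the same replicate number also goes with the same name series, and the labels do not say what else such libraries share. Colon and jejunum libraries of the same library number had a median correlation of 0.10 over 66 pairs (-0.375 to 0.539), with 33 over 0.1; the labels do not say that they come from 1 rat, and the tissue tests did not pair them. In jejunum Xrcc2 rests on 22 counts in non-irradiated rats, which limits its fold.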
